A study of Mus musculus with 20 samples.

Results

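The let-7 family with miR-98 was followed along the crypt-villus axis of the mouse ileum. Its members were taken as the probes whose gene name in the normalized table is mmu-let-7a, mmu-let-7b, mmu-let-7c, mmu-let-7d, mmu-let-7e, mmu-let-7f, mmu-let-7g, mmu-let-7i or mmu-miR-98, that is the guide strands without an asterisk, which gave 9 of the 655 probes of the array. The array also carried 7 probes for their minor strands and 5 for miRNAs of the miR-99, miR-100 and miR-125 families, which are encoded beside let-7 genes. Epithelium of the ileum of wild type male C57BL/6J mice aged 4 months was released stepwise by chelation and shaking (a modified Weiser method), with no genetic change or drug treatment in any group. The fractions were V0 (villus tip), V1, V2, V3 and C1 (crypt), each measured on 4 Illumina bead arrays, 20 arrays in all. The series description gives 4 mice, but the labels do not tie an array to a mouse. Replicate numbers therefore only name arrays, and p-values measure the spread between arrays, which may be partly technical. Each fraction is a bulk cell suspension, in which fewer cells of a type and less RNA per cell cannot be told apart.

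A miRNA is cut from a hairpin, and its guide strand leads a silencing complex to mRNAs that pair with the seed, here bases 2 to 8. The let-7 miRNAs are known for low levels in stem and embryonic cells and high levels in differentiated tissue. They repress proliferation genes such as Ras and Myc family members, Hmga2 and Lin28, and Lin28 proteins in turn block the maturation of let-7 precursors. In the intestine, cells divide in the crypt and differentiate as they move up the villus, so the axis sets dividing against differentiated cells of 1 epithelium.

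The 9 mature sequences are shown because the members differ by so few bases that a reader can see what each probe had to tell apart. All 9 matched the RefSeq miRNA table (build GRCm38.p6), all are 22 bases long, and the capitals mark the shared seed:
mmu-let-7a: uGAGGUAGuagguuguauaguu
mmu-let-7b: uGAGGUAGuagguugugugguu
mmu-let-7c: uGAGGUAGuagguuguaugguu
mmu-let-7d: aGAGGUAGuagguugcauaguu
mmu-let-7e: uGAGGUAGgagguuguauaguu
mmu-let-7f: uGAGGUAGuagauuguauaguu
mmu-let-7g: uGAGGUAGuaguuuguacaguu
mmu-let-7i: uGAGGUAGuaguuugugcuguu
mmu-miR-98: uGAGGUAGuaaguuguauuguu

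The seed GAGGUAG was the same in all 9 members, and 11 of the 1679 mature miRNAs in the table carried it (the other 2 are mmu-let-7k and mmu-miR-1961). Counted from 1 at the 5′ end and with the base of mmu-let-7a first, mmu-let-7c differed from mmu-let-7a by A19G alone, mmu-let-7e by U9G alone and mmu-let-7f by G12A alone. mmu-let-7b carried A17G and A19G, mmu-let-7d carried U1A and U16C, mmu-let-7g carried G12U and U18C, and mmu-miR-98 carried G11A and A19U. mmu-let-7i was the farthest, with G12U, A17G, U18C and A19U. The U9G change of mmu-let-7e lies directly after the seed. The sequences of the array's own probes were not used here, so how far a probe also reads its nearest relatives was not tested.

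The members come from 11 loci in the table. On chromosome 13, minus strand, mmu-let-7a (chr13:48538239-48538260), mmu-let-7f (chr13:48537889-48537910) and mmu-let-7d (chr13:48536078-48536099) lie in 1 cluster, whose hairpins are 261 bases (Mirlet7f-1 and Mirlet7a-1) and 1714 bases (Mirlet7d and Mirlet7f-1) apart. The array's own annotation also places mmu-let-7a on chromosome 9, a locus that the table does not hold. On chromosome 15, plus strand, mmu-let-7c (chr15:85706616-85706637) and mmu-let-7b (chr15:85707325-85707346) come from hairpins 621 bases apart, and mmu-let-7c has a second locus (chr16:77599672-77599693, plus strand), 656 bases from Mir99a. mmu-let-7e has the single locus chr17:17830366-17830387, plus strand, with Mir125a 367 bases away. On the X chromosome, plus strand, the second locus of mmu-let-7f (chrX:151912353-151912374) lies 785 bases from the hairpin of mmu-miR-98 (chrX:151913229-151913250). mmu-let-7g (chr9:106178846-106178867, plus strand) and mmu-let-7i (chr10:122985698-122985719, minus strand) had no other member beside them. The RefSeq annotation gives each of the 11 loci as a miRNA gene.

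The arrays differed in depth. Between 258 and 481 probes per array had a detection p of at most 0.01 before normalization, and V3 replicate 4 (258) and C1 replicate 4 (285) had the fewest. The values below are log2 of the quantile-normalized signal, and a probe's level is compared only with itself on other arrays. The slide of an array was inferred from the number that opens its title. On that reading the arrays lay on 4 slides, and V0 shared only slide 2 with C1 (V0 replicates 3 and 4, C1 replicate 3). Whether arrays on different slides also came from different mice is not labelled, so slide and mouse cannot be told apart. C1 replicate 4 was alone on slide 4. The 8 epithelial miRNAs fixed as markers (the miR-200 family with miR-192, miR-194 and miR-215) were all detected on every V0, V2 and V3 array, 7 of 8 on every V1 array and 5 of 8 on every C1 array. Their summed signal was 150858 on V3 replicate 4 and 109425 on C1 replicate 4, against 245170 to 362470 on the other 18 arrays.

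On the normalized scale, 6 of the 9 members varied little across the axis. On the 18 arrays other than V3 replicate 4 and C1 replicate 4, mmu-let-7a, mmu-let-7b, mmu-let-7c, mmu-let-7d, mmu-let-7f and mmu-let-7g all read between 15.30 and 15.90, and none of them ranked below place 33 of 655 on any of these arrays. The steadiest was mmu-let-7f, a product of both the chromosome 13 and the X cluster, with a span of 0.20 over the 18 arrays (15.65 to 15.85). mmu-let-7a spanned 0.23 and mmu-let-7d 0.28, while mmu-let-7b, mmu-let-7c and mmu-let-7g spanned 0.47, 0.53 and 0.46. Before normalization the spans over the same arrays were wider, 0.49 log2 units for mmu-let-7f, 0.54 for mmu-let-7a, 1.40 for mmu-let-7d, 1.30 for mmu-let-7g, 1.52 for mmu-let-7b and 1.76 for mmu-let-7c (signals of 18153 to 61438), and the 6 probes read 28.5% to 97.5% of the brightest probe of the same array. Whether such bright spots were saturated was not tested. The plot of each member by array shows these 6 as flat rows near the top.

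**Figure D1:**
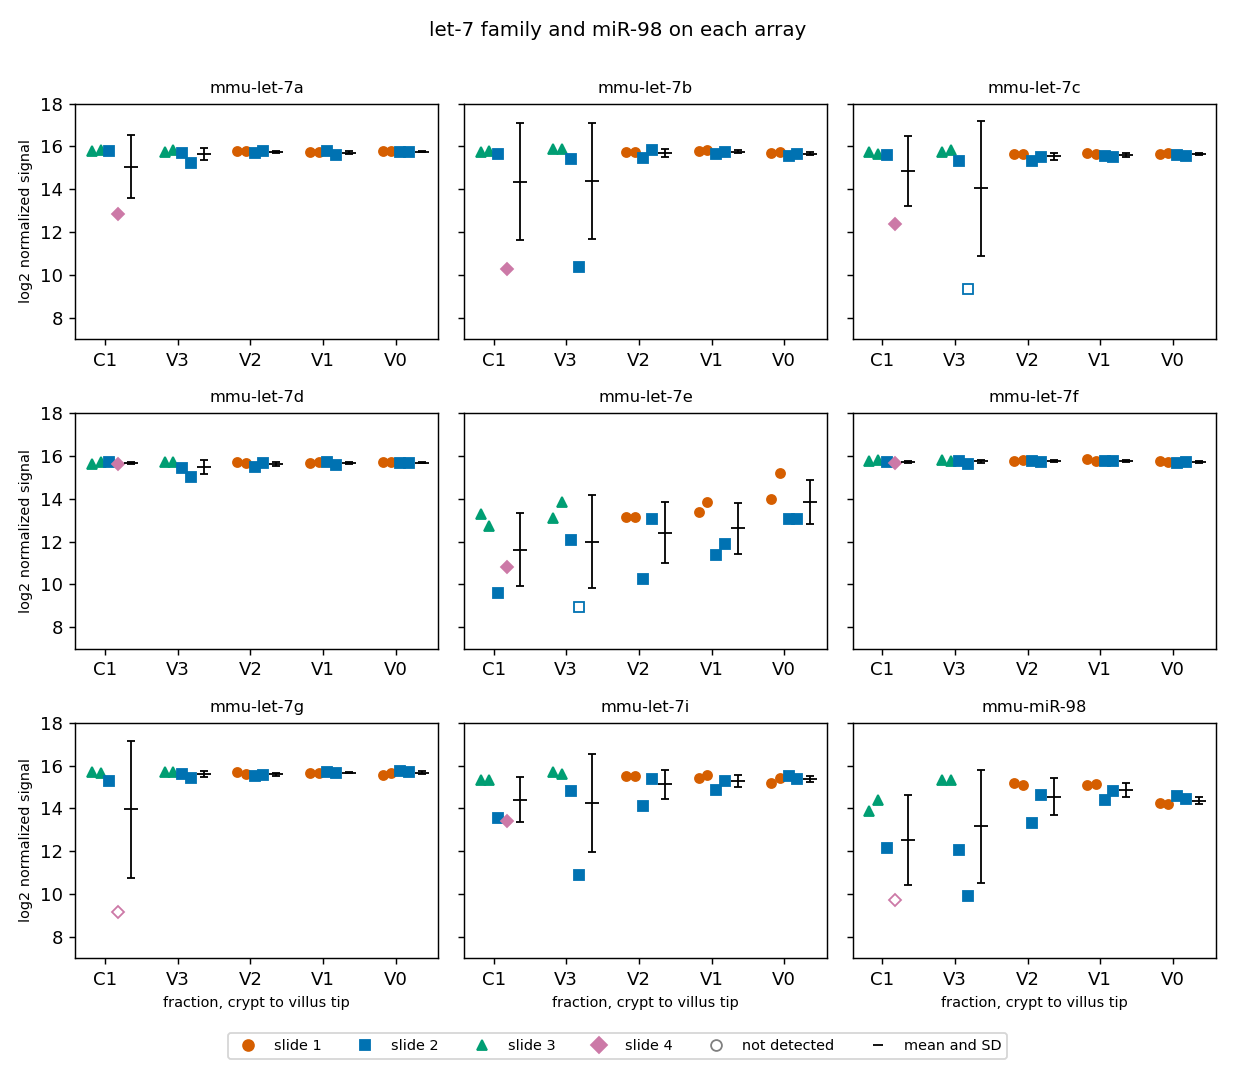
The log2 normalized signal of each of the 9 members (y axis) is plotted for the 5 fractions from crypt (C1) to villus tip (V0) (x axis), 1 point per array, coloured by slide; open points were not detected, and black marks give the mean and SD of 4 arrays. On 18 arrays mmu-let-7a, mmu-let-7b, mmu-let-7c, mmu-let-7d, mmu-let-7f and mmu-let-7g lie between 15.30 and 15.90, whereas mmu-let-7e, mmu-let-7i and mmu-miR-98 spread over 5.61, 2.12 and 3.28 log2 units.

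V3 replicate 4 and C1 replicate 4 broke this pattern, and they did so unevenly within the family. mmu-let-7b read 10.36 on V3 replicate 4, where the other V3 arrays read 15.87, 15.90 and 15.42, and 10.25 on C1 replicate 4, where the other C1 arrays read 15.74, 15.77 and 15.65. mmu-let-7c read 9.34 (not detected) on V3 replicate 4 and 12.40 on C1 replicate 4, against at least 15.30 elsewhere. mmu-let-7a and mmu-let-7g stayed high on V3 replicate 4 (15.21 and 15.42) but read 12.83 and 9.14 on C1 replicate 4, where mmu-let-7g was not detected. mmu-let-7d and mmu-let-7f stayed high on both arrays: mmu-let-7d read 15.00 and 15.62, and mmu-let-7f read 15.62 and 15.68, on V3 replicate 4 and C1 replicate 4. On C1 replicate 4, then, mmu-let-7a departed from its median over the 20 arrays by -2.94, while its cluster neighbours mmu-let-7d and mmu-let-7f, which differ from it by 2 bases and 1 base, departed from theirs by -0.067 and -0.074. Both mmu-let-7a and mmu-let-7f also have a locus outside that cluster. At least 4-fold below their own medians were 5 of 9 members on V3 replicate 4, 6 of 9 on C1 replicate 4 and at most 2 on any other array. Of all 40 probes with a median of at least 15, which include 7 members, 18 (45%) were that low on V3 replicate 4 and 26 (65%) on C1 replicate 4. Among those 7 members, mmu-let-7b, mmu-let-7c and mmu-let-7i were that low on V3 replicate 4. On C1 replicate 4 mmu-let-7a, mmu-let-7b, mmu-let-7c and mmu-let-7g were. The share of these 7 was close to that of bright probes in general. mmu-let-7e and mmu-miR-98, low on both arrays, have medians under 15 (13.08 and 14.43).

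**Figure D2:**
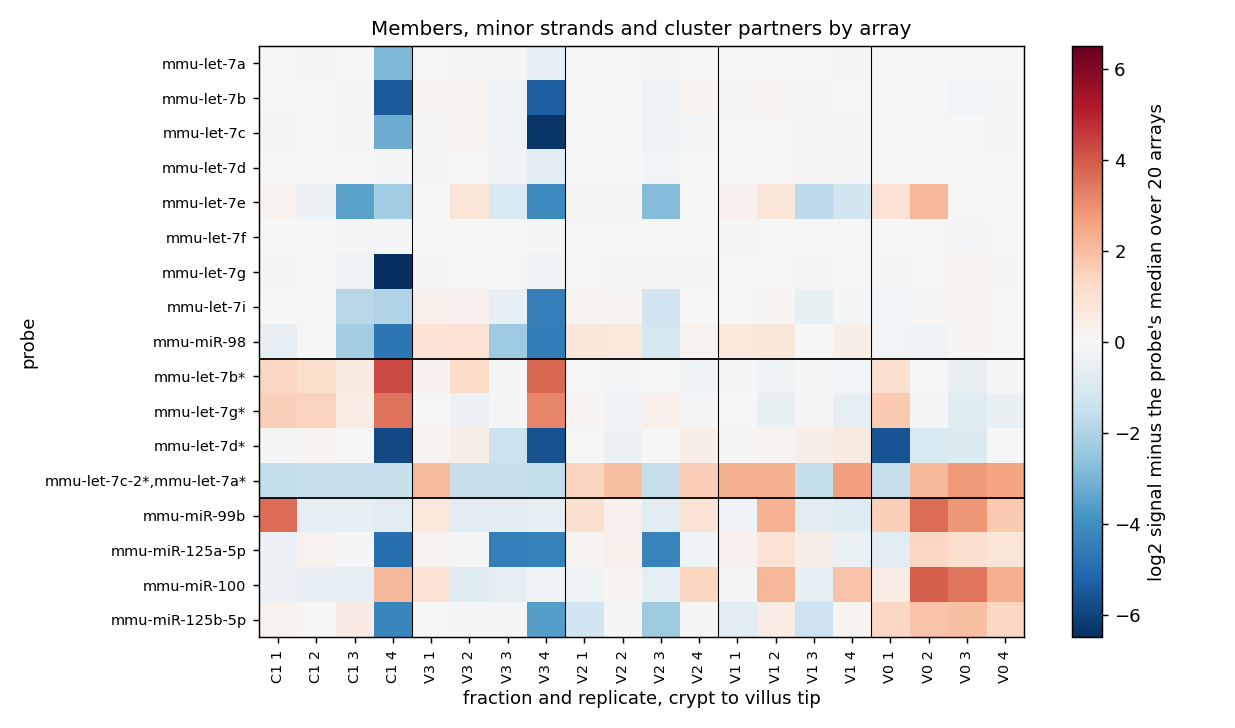
Each row is a probe and each column an array, ordered from crypt (C1) to villus tip (V0); the colour gives the log2 signal minus the probe's median over the 20 arrays, and black lines part the 9 members, 4 minor strands and 4 cluster partners. C1 replicate 4 and V3 replicate 4 stand out, with 6 and 5 members at least 4-fold below their medians and mmu-let-7b* and mmu-let-7g* at least 4-fold above theirs on this normalized scale.

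mmu-let-7e was the member with the widest range. The study lists this miRNA as significantly higher in V0 than in C1 on these same arrays, by a test other than the one used here. Its direction here is therefore no independent evidence. The study also reports qPCR of this miRNA on such fractions, rising from crypt to villus, which was not examined here. From crypt to tip, the 4 arrays of mmu-let-7e read 13.29, 12.72, 9.60 and 10.82 in C1, then 13.10, 13.85, 12.08 and 8.93 (not detected) in V3. V2 had 13.15, 13.15, 10.27 and 13.08, V1 had 13.38, 13.85, 11.38 and 11.87, and V0 had 14.00, 15.21, 13.05 and 13.08. The means of all 4 arrays stood in the order of the axis, but without V3 replicate 4 and C1 replicate 4 V3 averaged 13.01, above V2 (12.41) and V1 (12.62). Every V0 array was above 3 of the 4 C1 arrays, but the highest C1 array (13.29) lay above V0 replicates 3 and 4. The log2 difference of V0 from C1 was 2.23 ± 1.03 (SE, n = 4 arrays each), with a 95% interval of 0.07 to 4.38 and a limma adjusted p of 0.285. Neighbouring fractions could not be told apart: V0 and V1 differed by 1.22 (-0.95 to 3.38), V1 and V2 by 0.21 (-1.96 to 2.37), V2 and V3 by 0.43 (-1.73 to 2.58; -0.60 without those 2 arrays) and V3 and C1 by 0.38 (-1.76 to 2.51).

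Slide, which cannot be told apart from mouse here, moved with mmu-let-7e. In each of V0, V1 and V2, both arrays on slide 1 were above both arrays on slide 2, by 1.67 log2 units on average, although in V2 the nearest pair differed by 0.074 (13.15 and 13.08). Among the 384 probes detected on all 4 arrays of any fraction, 15 (3.91%) showed that order in all 3 fractions, and mmu-let-7c, with an average gap of 0.16, was the only other member. Within slide 1 the order was clean, with 14.00 and 15.21 in V0, 13.38 and 13.85 in V1, and 13.15 and 13.15 in V2. Within slide 2, V0 had 13.05 and 13.08 and V1 had 11.38 and 11.87, V2 (10.27 and 13.08) and V3 (12.08 and 8.93) were spread, and C1 had 9.60. Within slide 3, V3 (13.10 and 13.85) and C1 (13.29 and 12.72) overlapped. With slide as a fixed block, in which C1 replicate 4 has no weight, the difference of V0 from C1 was 3.23 ± 0.87 (limma adjusted p = 0.0718). On slide 2 alone it was 3.46 (limma adjusted p = 0.920), resting on 2 arrays against 1.

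mmu-miR-98, the X-linked family member encoded beside mmu-let-7f, had its highest mean below the villus tip. Its arrays read 13.88, 14.39, 12.15 and 9.70 (not detected) in C1 and 15.32, 15.34, 12.06 and 9.92 in V3. They read 15.16, 15.09, 13.29 and 14.63 in V2, 15.09, 15.14, 14.41 and 14.82 in V1, and 14.26, 14.19, 14.56 and 14.44 in V0. The mean was highest in V1 (14.86), followed by V2 (14.54), V0 (14.37), V3 (13.16) and C1 (12.53), and V0 overlapped V1 and V2. All 4 V1 arrays were above all 4 C1 arrays, the narrowest gap being 14.41 in V1 against 14.39 in C1. V1 exceeded C1 by 2.34 ± 1.04 (SE, n = 4 each; 95% interval 0.15 to 4.52; limma adjusted p = 0.191), V2 by 2.02 ± 1.04 (limma adjusted p = 0.265) and V0 by 1.84 ± 1.04 (limma adjusted p = 0.302). Without C1 replicate 4 and V3 replicate 4, the V1 difference was 1.39 (limma adjusted p = 0.249) and the V0 difference 0.90 (limma adjusted p = 0.469).

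Calls of mmu-miR-98 depended on how slide was modelled. Where slide was a fixed block, mmu-miR-98 exceeded C1 by 3.43 in V1 (limma adjusted p = 0.0141) and by 3.11 in V2 (limma adjusted p = 0.0264), and V2 exceeded V3 by 2.85 (limma adjusted p = 0.0275). The V0 difference from C1 was then 2.93 (limma adjusted p = 0.0604). With slide as a random block none of these was called: V1 exceeded C1 by 2.92 (limma adjusted p = 0.101 with an estimated correlation), V2 exceeded C1 by 2.60 (limma adjusted p = 0.151 with an estimated correlation) and V2 exceeded V3 by 1.96 (limma adjusted p = 0.676 with an estimated correlation). V3 stood differently on the slides: on slide 3, V3 had 15.32 and 15.34 against 13.88 and 14.39 in C1, whereas on slide 2, V3 had 12.06 and 9.92 against 12.15 in C1. V1 and V2 share only slide 2 with C1 and V3, and the V3 value of 9.92 there is from the shallow replicate 4. The share of all probes called with slide as a fixed block was not counted, so the calls of mmu-miR-98 have no background beside them. On slide 2 alone, with its 1 C1 array, V1 exceeded C1 by 2.47 (limma adjusted p = 0.911).

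mmu-let-7i lay between these patterns. Its arrays read 15.34, 15.32, 13.57 and 13.40 in C1, 15.68, 15.62, 14.80 and 10.89 in V3, and 15.50, 15.52, 14.12 and 15.36 in V2. V1 had 15.40, 15.55, 14.87 and 15.27, and V0 had 15.16, 15.42, 15.50 and 15.38. The crypt arrays fell into a high and a low pair, and the high pair overlapped V0, which exceeded C1 by 0.96 ± 0.80 (limma adjusted p = 0.435). V2 replicate 3 was low for mmu-let-7i (14.12), mmu-let-7e (10.27) and mmu-miR-98 (13.29) alike, and C1 replicate 3 was low for the same 3. Over the 20 arrays, mmu-let-7i correlated with mmu-miR-98 at r = 0.881 and with mmu-let-7e at r = 0.841, and over the 18 arrays at 0.826 and 0.852, although it differs from mmu-let-7e at 5 bases. These are descriptions across arrays that share slides and depth.

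No member passed the test in any comparison of fractions without a slide term. A call needed a limma adjusted p of at most 0.05, over all probes detected on every array of either fraction, and at least a 2-fold difference. In V0 against C1, 0 of 9 members were called, as against 2 of all 321 probes tested (0.623%), and 1 member (mmu-let-7e) had an unadjusted p under 0.05, as did 16.8% of all probes. No member had V0 arrays clear of its C1 arrays, against 7.79% of all probes. In V1 against C1, 0 of 9 were called (0.578% of 346 probes), 1 (mmu-miR-98) had an unadjusted p under 0.05 (24.6% of all probes), and 1 (mmu-miR-98) had arrays that did not overlap (22.3% of all probes). The members' shares were therefore near or below those of the other probes. V2 and V3 against C1 also called 0 of 9, beside 0.645% and 0.361% of all probes. No member had an unadjusted p under 0.05 in V2 or V3 against C1, as against 20% and 9.39% of all probes. V0 against V1, V1 against V2 and V2 against V3 called 0 of 9 members and 0%, 0% and 0% of all probes. Again no member had an unadjusted p under 0.05, where 3.65%, 0.585% and 0.993% of all probes did.

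The direction of 3 of the 9 members' differences (mmu-let-7a, mmu-let-7b and mmu-let-7c) changed without 1 crypt array. In V0 against C1, 8 of 9 members had a positive log2 difference, with a median of 0.96 (range -0.015 to 2.23), where the median over all probes tested was -0.035. Leaving out C1 replicate 4 brought mmu-let-7a to -0.034 (0.71 with it), mmu-let-7b to -0.067 (1.30), mmu-let-7c to -0.025 (0.79) and mmu-let-7g to 0.12 (1.72). mmu-let-7e was at 1.96 (2.23 with that array), mmu-let-7i at 0.62 (0.96) and mmu-miR-98 at 0.90 (1.84). mmu-let-7d and mmu-let-7f, which stayed bright on that array, had differences of 0.019 (95% interval -0.59 to 0.63) and -0.015 (-0.59 to 0.56) with all arrays, intervals that lie within 2-fold either way on this scale. V3 against C1, the 2 fractions that each hold a shallow array, had members on both sides, 6 higher and 3 lower, with a median of 0.036.

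**Figure D3:**
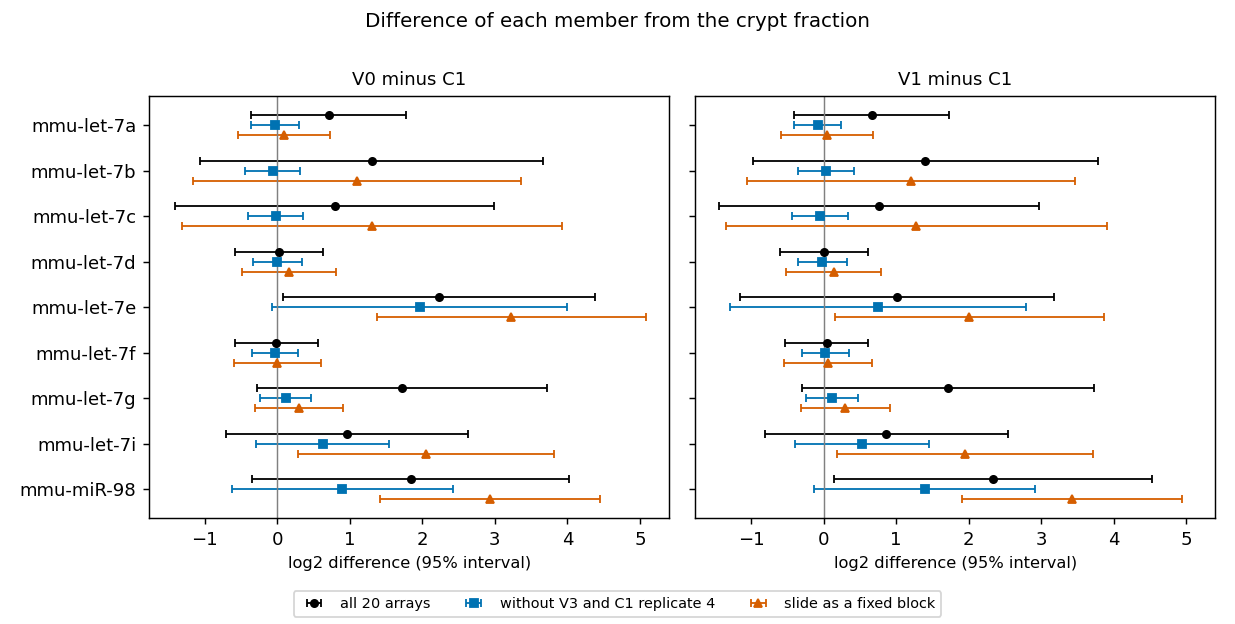
The log2 difference from C1 (x axis) with its 95% interval is given for each member (y axis), for V0 (left) and V1 (right), with all 20 arrays, without V3 and C1 replicate 4, and with slide as a fixed block. Without those arrays mmu-let-7a, mmu-let-7b and mmu-let-7c lie at -0.034, -0.067 and -0.025 in V0, while mmu-let-7e stays at 1.96 and, with the slide block, at 3.23.

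A linear trend over the 5 steps from C1 to V0 gave a positive slope for all 9 members, with a median of 0.31 log2 units per step, beside -0.0015 over all probes. Without V3 replicate 4 and C1 replicate 4 the slopes of mmu-let-7a, mmu-let-7b, mmu-let-7c and mmu-let-7f were negative (-0.012 to -0.0042), 5 of 9 stayed positive (0.0051 to 0.36, the highest for mmu-let-7e), and none was called. With all arrays none was called, as was 0% of the 384 probes tested, and 2 of 9 (mmu-let-7e and mmu-miR-98) had an unadjusted p under 0.05, against 24.2% of all probes. The slopes were 0.51 ± 0.22 for mmu-let-7e and 0.54 ± 0.23 for mmu-miR-98 (SE, limma adjusted p = 0.184 for each). mmu-let-7f had a slope of 0.00051 (95% interval -0.11 to 0.12), the flattest of the 9.

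The members resembled one another only loosely, and pairs closer in sequence were not more alike on these arrays. Over the 20 arrays the 36 pairs had a median Pearson r of 0.665 (0.0516 to 0.983), and over the 18 arrays 0.509 (-0.0847 to 0.852). The 4 pairs that differ by 1 base ranged from 0.367 to 0.942 (median 0.491), and the 9 pairs that differ by 4 bases from 0.0516 to 0.907 (median 0.681). Over the 18 arrays these medians were 0.515 and 0.541. Most members varied little there, so a low r says little, and the part of sequence was not tested. The highest r, 0.983 between mmu-let-7a and mmu-let-7g, was 0.0272 over the 18 arrays. Both probes read low on C1 replicate 4 and varied little elsewhere. mmu-let-7b and mmu-let-7c, neighbours on chromosome 15 that differ by 1 base, had 0.942 over 20 and 0.813 over 18 arrays. mmu-let-7a and mmu-let-7e, also 1 base apart, had 0.367 and 0.392.

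Outside the family, the probes most like the mean of the 9 members, of 339 candidates, were miR-215 (r = 0.971), miR-15b (0.966), miR-146a (0.964), miR-429 (0.963) and miR-378 (0.946). Over the 18 arrays these were 0.859, 0.644, 0.702, 0.68 and 0.371, and only miR-215 kept its place. Those most like mmu-let-7e were miR-181b (r = 0.814, and 0.747 over the 18 arrays), miR-16 (0.798 and 0.677) and miR-361 (0.787 and 0.741). All are correlations over the same arrays, with depth in common.

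The 7 probes for minor strands read the other arm of the same hairpins. Over the 20 arrays mmu-let-7b*, mmu-let-7g* and mmu-let-7d* correlated with their own guides at r = -0.896, -0.625 and 0.519. Over the 18 arrays the same pairs had 0.248, -0.24 and 0.0283. These guides varied little there, so a low r says little. Of the 7 probes, 3 were detected on all 4 arrays of at least 1 fraction, and their sequences are shown, with another that was detected on 10 arrays, because they share no seed with the guides (capitals, bases 2 to 8):
mmu-let-7b*: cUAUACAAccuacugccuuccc
mmu-let-7d*: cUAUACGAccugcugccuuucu
mmu-let-7g*: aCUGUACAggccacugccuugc
mmu-let-7c-2*,mmu-let-7a*: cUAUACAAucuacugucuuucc

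On the normalized scale, mmu-let-7b* and mmu-let-7g* were high on arrays where the guide mmu-let-7b was low on both and the guide mmu-let-7g on C1 replicate 4. mmu-let-7b* read 13.76 on V3 replicate 4 and 14.30 on C1 replicate 4, against 9.52 to 11.36 on the other 18 arrays, and mmu-let-7g* read 13.61 and 13.97, against 9.68 to 12.15. Before normalization this was not so on V3 replicate 4, where mmu-let-7b* had a signal of 1173 within a range of 717 to 2798 over the 20 arrays, and mmu-let-7g* had 964, the lowest of its range up to 2363. On C1 replicate 4 they had 2791 and 2041, the highest of C1 but below V3 replicate 2 (2798) and V2 replicate 4 (2363), and the guide mmu-let-7b had 356, beside 355 on V3 replicate 4. Without V3 replicate 4 and C1 replicate 4, C1 had the highest normalized means of the 5 fractions: mmu-let-7b* averaged 9.89 ± 0.13 in V1 (SD, n = 4) and 11.03 ± 0.40 in C1 (n = 3), and mmu-let-7g* averaged 10.19 ± 0.34 in V1 and 11.60 ± 0.60 in C1. On this scale all 4 V1 and all 4 V2 arrays of both probes were below all 4 C1 arrays, but before normalization they overlapped: mmu-let-7b* had 901 to 1314 in V1, 717 to 1388 in V2 and 868 to 2791 in C1, and mmu-let-7g* had 1058 to 1752 in V1, 1117 to 2363 in V2 and 1320 to 2041 in C1. Of all probes tested, 22.3% had arrays that did not overlap between V1 and C1, and 15.5% between V2 and C1, in either direction. With all arrays, V1 was below C1 by 1.96 ± 0.76 for mmu-let-7b* (SE; limma adjusted p = 0.165) and by 2.01 ± 0.74 for mmu-let-7g* (limma adjusted p = 0.159), and neither was called.

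mmu-let-7d* behaved the other way. It read 8.75 on C1 replicate 4, 8.95 on V3 replicate 4 and 9.04 on V0 replicate 1, detected on none of the 3, against 13.21 to 15.21 on the other 17 arrays, while its guide mmu-let-7d read at least 15.00 everywhere. All V0 arrays (9.04, 13.64, 13.76 and 14.63) were below all V1 arrays (14.71, 14.82, 15.06 and 15.21), a difference of -2.18 ± 1.41 (limma adjusted p = 0.9996). Between V0 and V1, 3.37% of all probes tested did not overlap, in either direction.

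The probe shared by mmu-let-7c-2* and mmu-let-7a*, whose sequence is the same from both hairpins, was detected only on villus arrays, and only on the deeper ones. It was detected on 0 of 4 C1 arrays, 1 of 4 V3 arrays and 3 of 4 arrays in each of V2, V1 and V0. V0 had 12.45, 13.15 and 12.93 where it was detected and 8.86 where it was not, against 8.81 to 8.90 in C1. Set against the lowest detected signal of each C1 array, the fold over C1 was at least 4.72 in V0, 4.56 in V1, 3.11 in V2 and 1.09 in V3 (means of log2 values over all 4 arrays, undetected ones included). The arrays that detected this probe had 406 to 481 detected probes before normalization. Those that did not had 258 to 393, among them all C1 arrays (285 to 372). The part of depth in these values was not tested. Having been detected on all arrays of no fraction, the probe itself was not tested. mmu-let-7f* was detected on 4 arrays, mmu-let-7i* on 2 and mmu-let-7c-1* on none.

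Among the miRNAs encoded beside let-7 genes, the 4 that were detected on all arrays of a fraction had their highest mean in V0. However, miR-100 and miR-99b met that filter in V0 alone, and miR-125a-5p in V0 and V1 alone. None of the 4 was detected on all 4 C1 arrays, so each entered the test of V0 against C1 through V0. The choice of probes therefore favours V0, and a shared V0 maximum is no result about these miRNAs. miR-125b-5p, a relative of the miR-125a-5p encoded next to mmu-let-7e, read 14.56, 15.03, 15.14 and 14.56 in V0, against 13.44, 13.21, 13.71 and 8.96 (not detected) in C1. All V0 arrays were above all C1 arrays and all V1 arrays. Of all probes tested, 7.79% did not overlap between V0 and C1 and 3.37% between V0 and V1, in either direction. The difference of V0 from C1 was 2.49 ± 0.95 (SE; limma adjusted p = 0.226), and without C1 replicate 4 the means were 14.82 in V0 and 13.46 in C1. miR-100 read 9.94, 13.40, 12.91 and 11.75 in V0, against 9.05, 8.94, 8.86 and 11.58 in C1, where only the last was detected (difference 2.39, limma adjusted p = 0.202). miR-99b had 11.07, 13.17, 12.33 and 11.26 in V0, against 13.17, 8.90, 9.01 and 8.84 in C1 (difference 1.97, limma adjusted p = 0.268). miR-125a-5p, the neighbour of mmu-let-7e, had 12.72, 14.76, 14.48 and 14.19 in V0, against 13.06, 13.64, 13.31 and 8.52 in C1 (difference 1.91, limma adjusted p = 0.344). Without C1 replicate 4, miR-125a-5p averaged 14.04 in V0 and 13.34 in C1, and miR-99b averaged 11.95 in V0 and 10.36 in C1. No partner was called, and miR-99a was not detected on all arrays of any fraction.

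The marker lists of other cells also had higher median sums in V0 than in C1, as did the epithelial list (321866 and 264998). The 4 fibroblast and smooth muscle probes on the array (of 5 miRNAs listed, among them miR-143, miR-145 and miR-199a-5p) were all detected on every V0 array and summed to 72985 to 138044, against 41674 to 82260 in C1, where 2 of 4 were detected on every array. The 4 leukocyte probes summed to 52744 to 71495 in V0 and 8442 to 57668 in C1, the 3 erythroid probes to 12976 to 24646 in V0 and 2395 to 7576 in C1, and the 4 muscle probes to 7530 to 16791 in V0 and 2481 to 13209 in C1. The 1 endothelial probe read 879 to 9101 in V0 and 1000 to 2269 in C1. The lowest C1 values of the leukocyte, muscle and endothelial lists are from the shallow C1 replicate 4, as is the highest fibroblast and smooth muscle sum of C1. The other C1 arrays had leukocyte sums of 30413 to 57668. miR-144 was detected on no array of V0 or C1, miR-1 on none of V0 and miR-206 on none of C1. The part of these cells in the V0 levels of mmu-let-7e and its partners was not tested.

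**Figure D4:**
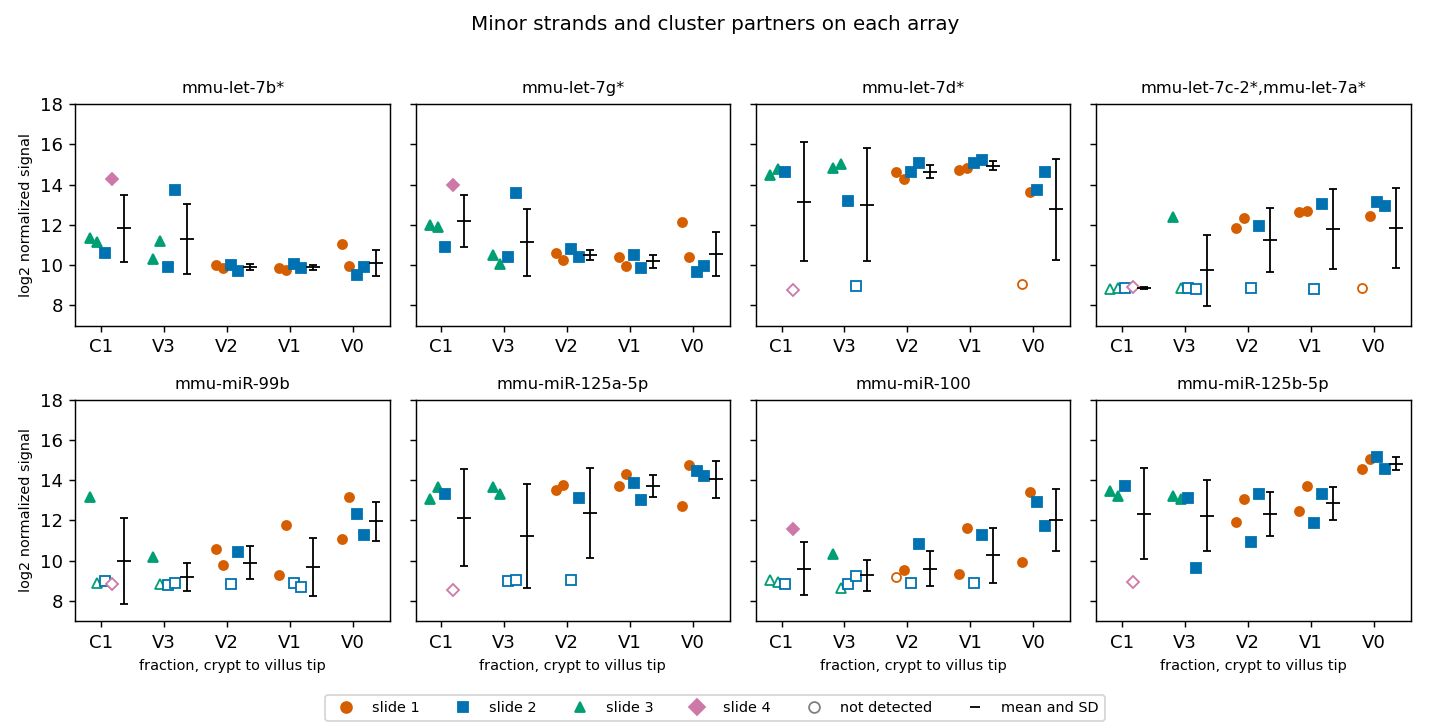
The log2 normalized signal (y axis) of 4 minor strands (top) and 4 cluster partners (bottom) is plotted for each array from crypt (C1) to villus tip (V0) (x axis), coloured by slide, with open points for arrays without detection and black marks for the mean and SD of 4 arrays. On this scale mmu-let-7b* and mmu-let-7g* are highest on C1 replicate 4 (14.30 and 13.97). All 4 V0 arrays of miR-125b-5p (14.56 to 15.14) lie above all C1 arrays, where 7.79% of all probes tested did not overlap in either direction.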

How the data were processed

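miRNAs of 20 ileal fraction samples were measured on Illumina Universal MicroRNA Expression Profiling bead chips. The authors deposited 1 table of average bead signal intensity as read and 1 after they quantile-normalized the arrays jointly, keeping the background in. Each deposited table pairs the intensity of its 655 probes with a detection p-value from GenomeStudio. Its version and the genome build are not given in the sources used here.

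The normalized intensity was log2-transformed here. A limma model (version 3.58.1, R 4.3.3) with a mean for each fraction was fitted to all 20 arrays, after testing on simulated data. Tests and Benjamini-Hochberg adjustment covered the probes detected (p at most 0.01) throughout the 4 arrays of at least 1 fraction compared, or of any fraction for the trend over steps 0 (C1) to 4 (V0). Calls required adjusted p at most 0.05 and, except for the trend, a 2-fold difference. The study names a paired rank comparison, which unpaired labels and 4 arrays per fraction do not allow. Its methods also name the Illumina custom error model, with or without adjustment, which was not run here. The members, minor strands, partners, marker lists and alternatives were chosen with earlier results of these data known. All 9 members are named, as are minor strands and partners detected on all arrays of a fraction, and the 5 probes most like the members' mean and the 3 most like mmu-let-7e. The shared minor-strand probe and the values by slide were added after values were seen. For a probe detected on no C1 array, a lower bound of the fold was taken against the lowest detected signal of each array. Sequences are from RefSeq (GRCm38.p6). The number of arrays limits the precision. Alternatives concerned normalization, background, detection filter, slide, arrays, spread model and test.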

Additional observations from a re-analysis of the deposited data

Results flagged for a closer look

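Each fraction's 4 arrays were searched for an array far from the other 3, for the 9 members and for the 3 minor strands and 4 cluster partners detected on all arrays of a fraction. This found 21 of 80 groups (26.2%), where chance alone gives about 5%. Of the 21 arrays found, 8 were C1 replicate 4, 5 were V3 replicate 4 and 5 were V2 replicate 3, and 1 each was V1 replicate 1, V3 replicate 1 and C1 replicate 1. The values below are log2 normalized signals, each with that of the nearest other array of its fraction.

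C1 replicate 4 read 12.83 for mmu-let-7a (nearest 15.77), 10.25 for mmu-let-7b (15.65), 12.40 for mmu-let-7c (15.59) and 9.14 for mmu-let-7g (15.30). It read 8.75 for mmu-let-7d* (14.48), 8.52 for miR-125a-5p (13.05) and 8.96 for miR-125b-5p (13.21), and was the highest C1 array for miR-100 at 11.58 (9.05). V3 replicate 4 read 10.36 for mmu-let-7b (15.42), 9.34 for mmu-let-7c (15.30), 15.62 for mmu-let-7f (15.78) and 9.63 for miR-125b-5p (13.05), and was the highest V3 array for mmu-let-7g* at 13.61 (10.48). V2 replicate 3 was the lowest V2 array for mmu-let-7a at 15.68 (15.77), mmu-let-7d at 15.50 (15.68), mmu-let-7e at 10.27 (13.08), mmu-let-7i at 14.12 (15.36) and miR-125a-5p at 9.06 (13.12). V1 replicate 1 was the highest V1 array for mmu-let-7f at 15.85 (15.76). miR-99b was highest on V3 replicate 1 at 10.20 (8.89) and on C1 replicate 1 at 13.17 (9.01). The gaps of mmu-let-7a in V2, mmu-let-7d and mmu-let-7f are under 0.2 log2 units and were found because the other arrays lie so close together.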

How the results depend on the processing

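No paired analysis was possible because no label ties an array to a mouse. In V0 against C1, V3 against C1, V0 against V1, V1 against V2 and the trend, 0 of 9 members were called under every alternative run. The exact rank-sum test is too coarse at 4 against 4 arrays for its 0 calls to bear on stability. With slide as a fixed block, 1 member (mmu-miR-98) was called in each of V1 against C1, V2 against C1 and V2 against V3, and with slide as a random block 0 were called in each. How many of all probes the fixed block called was not counted. In V0 against C1, mmu-let-7e, mmu-let-7g and mmu-miR-98 kept a positive log2 difference under all 33 alternatives (1.15 to 3.46, 0.12 to 2.30 and 0.43 to 2.93). Leaving out a V1, V2 or V3 array, or changing the detection filter, the spread model or the test, cannot move this difference. Those alternatives are therefore no check on its sign. The other members changed sign under some alternatives, and the cause was not tested. Without normalization mmu-let-7f had 0.23, relative to an all-probe median of 0.95. With arrays centred on their median, mmu-let-7d had -0.76. With the slide block, mmu-let-7f had 0.000406. On slide 2 alone, mmu-let-7a, mmu-let-7b and mmu-let-7d had -0.029, -0.050 and -0.047. With array depth (detected probes) as a covariate, mmu-let-7b, mmu-let-7c, mmu-let-7d and mmu-let-7i had -0.18, -0.66, -0.12 and -0.18. Without V3 and C1 replicate 4, mmu-let-7a, mmu-let-7b and mmu-let-7c had -0.034, -0.067 and -0.025. Leaving out 1 array at a time gave -0.034 to 0.97 for mmu-let-7a, -0.067 to 1.77 for mmu-let-7b, -0.025 to 1.08 for mmu-let-7c and -0.033 to 0.0077 for mmu-let-7f, the lowest of the first 3 without C1 replicate 4. Without C1 replicate 3, mmu-let-7e had 1.56, its lowest when 1 array was left out. Arrays with few detected probes limit what C1 and V3 can show.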
